A study of Mus musculus and Homo sapiens with 42 samples.

Results

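APLNR, BIN1, FN1 and IGF1 are 4 of the 29828 genes in the tables of human cell lines depleted of CHD9, a chromodomain helicase DNA-binding protein that uses ATP to remodel nucleosomes. They were taken as a set because their read counts fell strongly in K562 cells when CHD9 was knocked down, so their K562 values are given below as a description, with no test. The rule for that choice did not use the counts in SNB19 cells. Nor did it use those of the orthologs Aplnr, Bin1, Fn1 and Igf1 in mouse cells and tissues lacking Chd9. Both were tested. Earlier results of these data were known when the genes and the lists of partner genes were chosen. The tests are thus not fully independent of the choice.

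APLNR is a G protein-coupled receptor at the cell surface whose ligands are the peptides apelin and APELA. IGF1 is a secreted growth factor that signals through the receptor tyrosine kinase IGF1R and is held in the extracellular fluid by IGF-binding proteins. FN1 (fibronectin) is a large glycoprotein of the extracellular matrix and of plasma, bound by integrins and assembled into fibrils around mesenchymal cells, and hepatocytes secrete its plasma form. BIN1 (amphiphysin 2) is an intracellular adaptor that bends membranes through its BAR domain, works with dynamin in endocytosis, and also binds MYC. The 4 proteins thus act at different places, as a receptor, a ligand, a matrix component and a membrane adaptor.

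The study sequenced RNA from 42 samples in 6 experiments. K562, a chronic myelogenous leukemia line, and SNB19, a glioblastoma multiforme line, each carried 1 of 3 inducible constructs, shRNA-CHD9#1, shRNA-CHD9#2 or the control shRNA-Luc against luciferase. All human cells, controls included, were grown with 1 μg/ml doxycycline for 48 h, and each construct was sequenced in 2 experiments (exp1 and exp2). Both hairpins reduce CHD9 without removing it, and each line stands for 1 tumour.

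The mouse samples carried a germline Chd9 deletion made with Cre under the beta-actin promoter, in the strain labelled FVB;129P2-Chd9. Early passage primary embryonic fibroblasts (MEFs, from E13.5) came as 4 Chd9-/- and 3 wild-type (Chd9+/+) samples, and early passage embryonic stem cells (ESCs) as 3 of each. Embryonic liver and brain at E15 gave 2 Chd9-/- and 2 wild-type samples per tissue. Lymph nodes from moribund EμMyc mice, in which MYC is expressed from an immunoglobulin enhancer in B cells, gave 3 samples each of wild type, Chd9+/- and Chd9-/-. All lymphoma donors carried the transgene, and the age at death is not part of the labels.

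Total counts were between 8109941 and 10476231 per human library, between 26064981 and 45422029 in the MEF, ESC and E15 libraries, and between 11729052 and 15820000 in the lymphomas. The labels do not say that replicates of a hairpin came from separate cultures. The p-values in the human lines thus measure the spread between these libraries, which may be technical. Pooled values take the libraries of both hairpins as 1 group. Their n of 4 counts 2 libraries for each hairpin, so their SD, SE and p mix the spread within and between hairpins. No library duplicated another of its own group, and libraries of different groups were not compared in this way. The K562 replicates differed by 1.33 to 9.13 times counting noise, and the SNB19 replicates by 1.16 to 20.1 times, with the pair of shRNA-CHD9#2 libraries at the upper end. The human counts covered only 6 of the 12 erythroid and 3 of the 6 glial markers chosen. K562 libraries held these 6 erythroid markers (summed level 1899 to 2414 CPM), and the 3 glial markers summed to 4467 to 6368 CPM in SNB19. The same 3 genes summed to 1533 to 2609 CPM in K562, so their sum alone does not mark a glial line. The mouse libraries held their own defining markers, with 15370 to 21185 CPM from mesenchymal genes in MEFs, 3164 to 3726 CPM from pluripotency genes in ESCs, 133578 to 155170 CPM from hepatic genes in liver, 4622 to 4826 CPM from neuronal genes in brain and 1405 to 3141 CPM from B cell genes in the lymphomas.

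The targeted gene was examined first. Levels are given as CPM, read counts scaled to a common library size. CHD9 in K562 was 329 and 243 CPM with shRNA-Luc, 146 and 139 CPM with shRNA-CHD9#1, and 150 and 152 CPM with shRNA-CHD9#2. All 4 knockdown libraries lay below both controls, and the mean was 51.3% of the control mean (log2 fold change -0.96, SE 0.118, edgeR adjusted p = 0.000599). In SNB19, CHD9 was 635 and 649 CPM with shRNA-Luc, 255 and 245 CPM with shRNA-CHD9#1, and 213 and 336 CPM with shRNA-CHD9#2. The SNB19 knockdown mean was 40.9% of the control (log2 fold change -1.29, SE 0.150, adjusted p = 0.000882), and the second library of shRNA-CHD9#2 kept the most CHD9.

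In K562 the 4 genes kept between 7.67% and 25.5% of their control level, depending on the gene and the hairpin. APLNR, the apelin receptor, was 84.6 and 89.6 CPM in the shRNA-Luc libraries. It was 16.9 and 16.8 CPM with shRNA-CHD9#1, and 16.8 and 20.4 CPM with shRNA-CHD9#2. The 4 knockdown libraries sat close together and far below both controls, at 20.4% of the control mean (87.1 ± 3.49 CPM, SD, n = 2, against 17.7 ± 1.81 CPM, n = 4). The receptor was the steadiest of the 4 genes in the controls, where its highest library exceeded its lowest 1.06 times.

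IGF1, the ligand, was 882 and 729 CPM with shRNA-Luc. The growth factor was 157 and 165 CPM with shRNA-CHD9#1, and 205 and 206 CPM with shRNA-CHD9#2. No knockdown library reached the control range, and both libraries of the second hairpin lay above both of the first. The mean fell from 806 ± 108 CPM (n = 2) to 183 ± 25.8 CPM (n = 4), which is 22.7% of the control.

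FN1, the matrix glycoprotein, was 1224 and 894 CPM in the shRNA-Luc libraries. With shRNA-CHD9#1 it was 81.6 CPM in both libraries, and with shRNA-CHD9#2 it was 109 and 113 CPM. The groups did not overlap, and the order of the hairpins was that seen for IGF1. The mean fell from 1059 ± 233 CPM (n = 2) to 96.4 ± 17.2 CPM (n = 4), or 9.10% of the control.

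BIN1, the membrane adaptor, was 59.6 and 71.6 CPM with shRNA-Luc. It was 5.70 and 5.97 CPM with shRNA-CHD9#1, and 4.92 and 5.14 CPM with shRNA-CHD9#2. These correspond to 518 and 600 reads in the controls and to between 44 and 49 reads in each knockdown library, and here the second hairpin gave the lower values. The mean fell from 65.6 ± 8.48 CPM (n = 2) to 5.43 ± 0.488 CPM (n = 4), or 8.29% of the control, the lowest remaining share of the 4 genes.

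**Figure D1:**
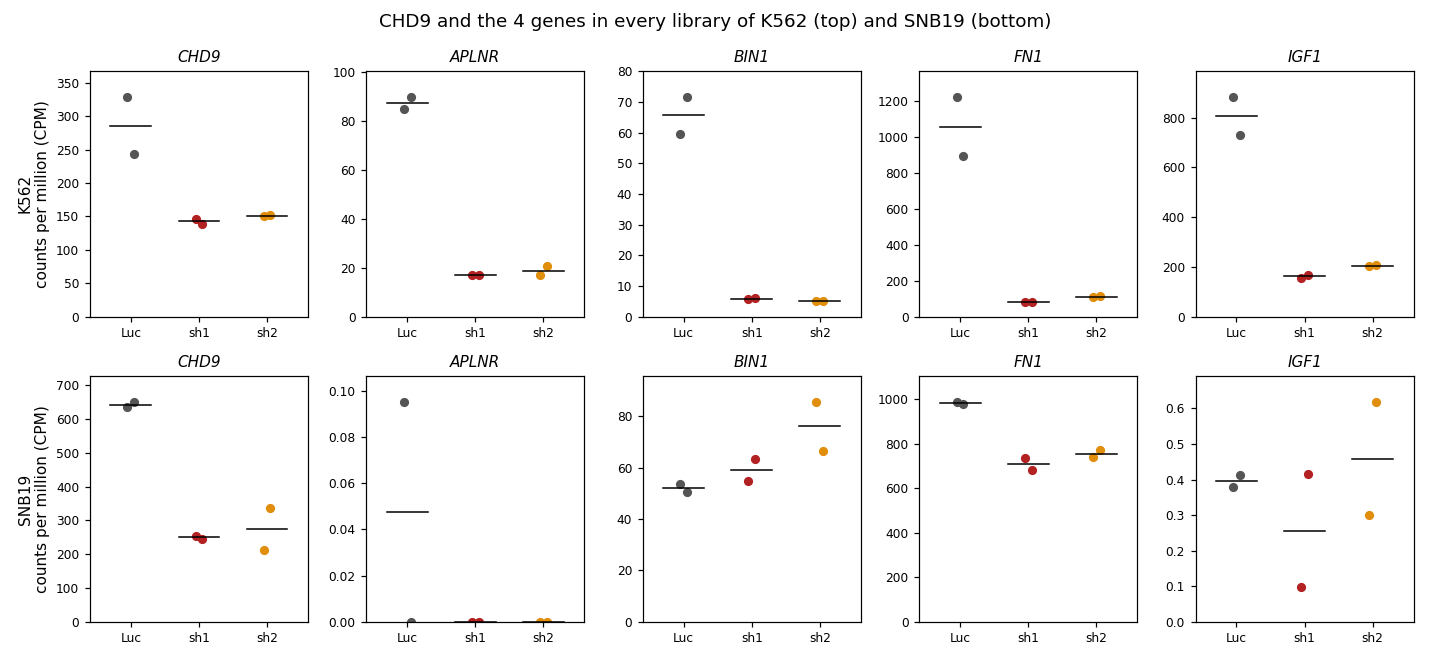
CPM of CHD9 and the 4 genes in every library of K562 (top) and SNB19 (bottom), on linear axes that start at 0 and differ between panels. Each point is 1 library, Luc, sh1 and sh2 are shRNA-Luc, shRNA-CHD9#1 and shRNA-CHD9#2, and lines are group means. In K562 every knockdown point of BIN1 lies between 4.92 and 5.97 CPM against 59.6 and 71.6 CPM in the controls, while in SNB19 all BIN1 knockdown points lie above the controls.

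On the log2 scale the K562 changes were -3.59 for BIN1 (SE 0.138), -3.46 for FN1 (SE 0.170), -2.29 for APLNR (SE 0.114) and -2.14 for IGF1 (SE 0.132). Ordered from the most negative change, BIN1 stood at place 8, FN1 at 10, APLNR at 39 and IGF1 at 47 of the 9171 genes that had enough counts. The call used throughout is an adjusted p under 0.05 with a log2 fold change beyond 1. All 4 genes were called lower in K562, where 3.5% of tested genes were, and since the genes were picked on this contrast nothing is read from that count. In these bulk libraries fewer cells expressing a gene and less RNA per cell cannot be told apart.

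By hairpin, shRNA-CHD9#1 gave log2 fold changes of -2.37 for APLNR, -3.49 for BIN1, -3.70 for FN1 and -2.32 for IGF1. With shRNA-CHD9#2 they were -2.22, -3.70, -3.25 and -1.97 in the same order. FN1 and IGF1 thus retained a larger share of their control level with shRNA-CHD9#2 (10.5% and 25.5%) than with shRNA-CHD9#1, where FN1 kept 7.70%. For BIN1 the order was the other way round, with 7.67% against 8.91%. CHD9 itself stood at 52.9% of control with shRNA-CHD9#2 and at 49.8% with shRNA-CHD9#1.

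**Figure D2:**
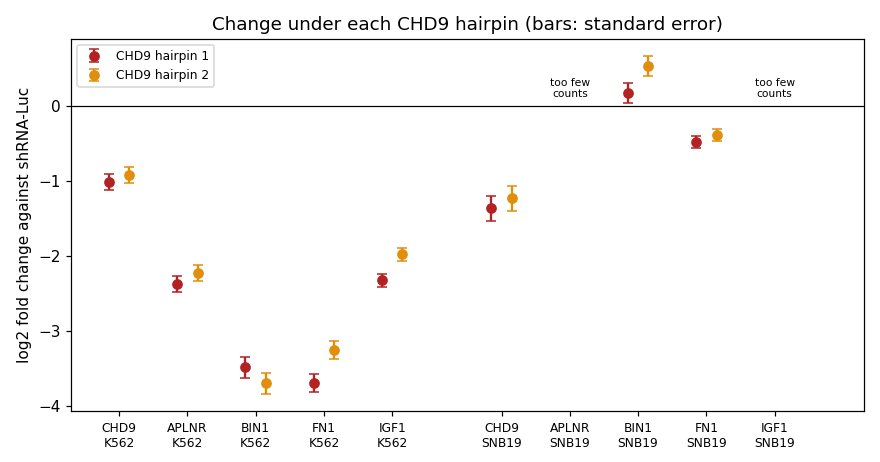
Log2 fold change of CHD9 and the 4 genes under each CHD9 hairpin against shRNA-Luc in K562 (left) and SNB19 (right). Points are fitted changes from 2 libraries per construct and bars are standard errors. In K562 the 8 member values lie between -3.70 and -1.97, and in SNB19 FN1 lies at -0.47 and -0.38 and BIN1 at 0.18 and 0.54, while APLNR and IGF1 had too few counts to be fitted.

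The 4 genes spanned a wide range of abundance. As RPKM, read counts divided by exon length and library size so that genes can be compared, the control level in K562 was 99.2 for IGF1, 61.2 for FN1, 23.3 for APLNR and 9.46 for BIN1. After knockdown the RPKM levels were 22.5, 5.57, 4.74 and 0.784, so the order of the genes was kept. The exon lengths come from GENCODE v29, a later annotation than that used for counting, which makes these levels approximate. In that annotation the antisense transcript HELLPAR covers 6693 exon bases of IGF1, and the strand setting used in counting is not given in the sources used here.

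The controls themselves were not identical. CHD9, FN1 and IGF1 were higher in the first shRNA-Luc library than in the second, by 1.35, 1.37 and 1.21 times, whereas APLNR and BIN1 were higher in the second. Leaving out either control library kept every member's log2 fold change between -3.72 and -1.99. The number of genes called across the table fell from 1180 to 660 without the second shRNA-Luc library.

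Across the 6 K562 libraries the log2 levels of the 4 genes followed each other with Pearson r between 0.974 (BIN1 and IGF1) and 0.999 (FN1 and IGF1). These libraries share 1 split between control and knockdown, which alone gives high values, and r exceeded 0.95 for 335 (BIN1) to 439 (IGF1) of 9170 other genes. Genes among the most like APLNR were MIGA2 (r = 0.996), a mitochondrial outer membrane protein, and FGFR3 (0.996), a fibroblast growth factor receptor. For BIN1 they were the aminopeptidase NPEPPS (r = 0.9995), the glycophorin GYPE (0.999) and the pseudokinase PTK7 (0.998). FN1 and IGF1 were each other's nearest gene, followed for both by NYNRIN and AL136295.5 with r between 0.998 and 0.999. A high r does not mean a change of like size. The K562 log2 fold changes were -0.49 for MIGA2, -0.70 for FGFR3, -0.29 for NPEPPS, -2.67 for GYPE and -1.51 for PTK7. They were -1.74 for NYNRIN and -0.78 for AL136295.5, and each of these genes fell less than the member it was like. Over the 6 SNB19 libraries r was -0.71 for BIN1 with NPEPPS, -0.08 for BIN1 with PTK7, and 0.65 for FN1 with AL136295.5. The other pairs could not be computed there because 1 of the genes had too few counts.

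Markers of other cell types were examined beside these changes. The human counts covered only 6 of the 9 mesenchymal and 3 of the 7 megakaryocyte markers chosen. In K562 the 6 mesenchymal markers summed to 89.1 and 91.9 CPM in the controls and to between 20.5 and 42.9 CPM after knockdown. Of these, 3 to 5 had 3 or fewer reads in a library. Most of that sum was COL1A2, a collagen chain. The 3 megakaryocyte markers summed to between 26.0 and 34.3 CPM in the controls and 66.0 to 86.5 CPM after knockdown, with PPBP at 3 reads or fewer throughout. The erythroid sum was 2055 and 2414 CPM in the controls and 1899 to 2273 CPM after knockdown, so its ranges overlapped. Sums of 3 glial markers did not overlap and were higher after knockdown (1533 and 1713 against 2319 to 2609 CPM). The same held for 4 T cell markers (21.3 and 21.6 against 35.8 to 44.7 CPM). It also held for 3 B cell markers (6.09 and 7.04 against 12.7 to 15.2 CPM). In the controls 1 of the glial, 2 to 3 of the T cell and 2 of the B cell markers had 3 or fewer reads. After knockdown it was 0 to 1 of the glial, 2 of the T cell and 0 to 2 of the B cell markers. The part of these markers in the changes of the 4 genes was not tested.

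SNB19 cells gave a different picture for the receptor and the ligand. APLNR had 1 read in 1 shRNA-Luc library and none in the other 5 libraries. IGF1 had 4 and 4 reads with shRNA-Luc, 1 and 4 with shRNA-CHD9#1, and 3 and 6 with shRNA-CHD9#2. Neither gene had enough reads for a test, so a loss of the size seen in K562 was not detectable in SNB19 at this depth.

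FN1 was expressed in SNB19 and fell moderately. It was 986 and 978 CPM with shRNA-Luc, 736 and 684 CPM with shRNA-CHD9#1, and 739 and 772 CPM with shRNA-CHD9#2. Every knockdown library lay below both controls, and the mean was 733 ± 36.6 CPM (n = 4) against 982 ± 5.63 CPM (n = 2), or 74.6%. The log2 fold change was -0.42 (SE 0.085, edgeR adjusted p = 0.0117), so FN1 passed the test without reaching the fold needed for a call. FN1 also passed with each hairpin by edgeR. The value was -0.47 (SE 0.080, adjusted p = 0.00214) for shRNA-CHD9#1 and -0.38 (SE 0.080, adjusted p = 0.0102) for shRNA-CHD9#2. Both hairpins share the shRNA-Luc libraries, and the pooled test used the same libraries, so these results are not independent of each other. The hairpins differed by -0.09 (SE 0.080, adjusted p = 0.567), which does not pass. Without the first shRNA-Luc library the pooled adjusted p was 0.173 and without the second it was 0.172, with fold changes of -0.41 and -0.43. The value for shRNA-CHD9#1 did not pass without its own second library (adjusted p = 0.0689), nor that for shRNA-CHD9#2 without the first or the second shRNA-Luc library (0.146 and 0.129). Without the first shRNA-CHD9#2 library the hairpins differed by -0.13 (adjusted p = 0.00224).

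BIN1 was not lower after knockdown in SNB19. It was 53.8 and 50.4 CPM with shRNA-Luc, 55.0 and 63.2 CPM with shRNA-CHD9#1, and 85.4 and 66.6 CPM with shRNA-CHD9#2. All 4 knockdown libraries lay above both controls, by a small margin for the first of shRNA-CHD9#1. The mean was 67.6 ± 12.9 CPM (n = 4) against 52.1 ± 2.38 CPM (n = 2), or 130% of the control, with a log2 fold change of 0.37 (SE 0.162, edgeR adjusted p = 0.142). The pooled change passed in 2 alternatives, 1 without a filter on low counts (0.41, adjusted p = 0.0266) and 1 that fitted the hairpins as separate groups (0.36, adjusted p = 0.0409).

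By hairpin, BIN1 rose with shRNA-CHD9#2 (0.54, SE 0.132, adjusted p = 0.0198), and the value with shRNA-CHD9#1 was 0.18 (SE 0.134, adjusted p = 0.336). The difference between the hairpins was -0.36 (SE 0.131, adjusted p = 0.137), which does not pass. The rise with shRNA-CHD9#2 did not pass without the first shRNA-Luc library (adjusted p = 0.0848) or without the second (adjusted p = 0.148). The difference between the hairpins passed without the first (-0.18, adjusted p = 0.0412) or the second library of shRNA-CHD9#2 (-0.54, adjusted p = 1.01e-09), and the value with shRNA-CHD9#1 then also passed (0.17 and 0.18, adjusted p = 0.0202 and 0.0140). In those fits 1 library stands for its hairpin and is assumed to vary like the others. Of the 2 members that could be tested in the pooled SNB19 comparison, 1 passed lower and none higher, where 7.4% of 8758 tested genes passed lower and 7% higher. None was called, against 3.97% of tested genes. With shRNA-CHD9#1 29% of genes passed in either direction, with shRNA-CHD9#2 17.3%, and between the hairpins 7.18%. The glial markers summed to 4467 and 4523 CPM in the controls and 5162 to 6368 CPM after knockdown, and the 6 mesenchymal markers to 3845 to 3956 and 4208 to 4967 CPM, which was not tested against FN1 or BIN1.

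Other genes of the 4 pathways were then read from lists of partners. The human tables held 5 of the 15 genes listed for APLNR, 13 of 22 for IGF1, 19 of 30 for FN1 and 12 of 20 for BIN1, and the others are not analysed here. Of the 5 apelin genes, 4 had enough counts in K562. ARRB1, a beta-arrestin that takes activated receptors off signalling, rose (log2 fold change 0.58, edgeR adjusted p = 0.00345). HDAC4, a histone deacetylase that binds MEF2 factors, fell (-0.30, adjusted p = 0.0480). The inhibitory G protein subunit GNAI2 stood at 0.28 (adjusted p = 0.0648). The median of the 4 was 0.02, beside 0.01 over all genes, where 17.6% of all genes passed higher and 13.6% lower. HDAC4 did not pass once any 1 of the 6 libraries was left out (adjusted p between 0.0548 and 0.262).

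In SNB19 the 5 apelin genes had a median of -0.01, beside 0.00 over all genes, and 1 passed lower, where 7.4% of all genes did. APELA, one of the ligands of the receptor, fell from 8.34 to 3.69 CPM (-1.18, adjusted p = 0.00380) in this line, which had almost no APLNR reads. In K562 APELA was at or near 0. GNAI2 (0.30, adjusted p = 0.0735) and ARRB1 (-0.35, adjusted p = 0.166) did not pass in SNB19. APELA did not pass without the first or the second shRNA-Luc library (adjusted p = 0.0603 and 0.0553). The ligand gene APLN is not analysed here.

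Among the 13 IGF genes in the tables, 6 had enough counts in K562. Of these 2 passed higher and 1 lower, where 17.6% and 13.6% of all genes did, and the median was 0.12 against 0.01 over all genes. IGF2R, which carries IGF2 to lysosomes, rose from 643 to 1028 CPM (0.68, adjusted p = 0.0141). PAPPA2, a protease that cleaves IGF-binding proteins, rose from 0.234 to 1.13 CPM (2.19, adjusted p = 0.0258), a change resting on few reads. STC2, a secreted glycoprotein that inhibits such proteases, fell (-0.41, adjusted p = 0.0130). IGF1R, the receptor of IGF1, was 79.1 CPM in controls and 62.1 CPM after knockdown (-0.35, adjusted p = 0.0574), which does not pass. IGF2 had too few reads in both lines, and INSR is not analysed here. Without the second shRNA-Luc library IGF2R, STC2 and PAPPA2 had adjusted p of 0.151, 0.0516 and 0.143, and without the first STC2 and PAPPA2 had 0.0982 and 0.134.

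In SNB19, where IGF1 had almost no reads, 3 of 9 tested IGF genes rose and none fell, where 7% and 7.4% of all genes did, and the median was 0.32 against 0.00 over all genes. They were the binding proteins IGFBP6 (1.41, adjusted p = 0.000220) and IGFBP5 (1.07, adjusted p = 0.0420) and the receptor substrate IRS2 (0.39, adjusted p = 0.0209). IGF1R was 576 CPM in controls and 574 CPM after knockdown (-0.01, adjusted p = 0.971). IGF2R was -0.12 (adjusted p = 0.376). IGFBP5 and IRS2 did not pass without either shRNA-Luc library or either library of shRNA-CHD9#1, nor IGFBP5 without the first of shRNA-CHD9#2 (adjusted p between 0.0556 and 0.258).

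Of the 19 fibronectin receptors and matrix genes in the tables, 13 were tested in K562. There 2 were higher and 5 lower, where 17.6% and 13.6% of all genes were, and the median was -0.16 against 0.01 over all genes. FBLN2, a matrix protein that binds fibronectin, fell from 12.9 to 2.49 CPM (-2.38, adjusted p = 0.000531). COL1A2 fell from 89.6 to 30.7 CPM (-1.55, adjusted p = 0.00363), and is also the gene that dominates the mesenchymal marker sum. The fibronectin-binding integrin subunit ITGAV fell (-0.58, adjusted p = 0.00373). Its partner ITGB1 was 956 and 1081 CPM on average (0.18, adjusted p = 0.102), and ITGA4 had too few reads. The other genes that passed are named here after their values were seen. They were the integrin subunit ITGB3, another partner of ITGAV, which rose from 3.62 to 19.4 CPM (2.41, adjusted p = 0.0104), the syndecan SDC1 (0.52, adjusted p = 0.0377), the laminin chain LAMC1 (-0.30, adjusted p = 0.0282) and the matrix protein SPARC (-0.63, adjusted p = 0.00805). These 4 did not pass without the first or the second shRNA-Luc library (adjusted p between 0.0599 and 0.187), nor COL1A2 without the second (0.0506). SDC1 also did not pass without 3 of the 4 single knockdown libraries, nor LAMC1 without 2 of them (adjusted p between 0.0563 and 0.0846).

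The matrix genes of SNB19 gave 3 higher and 3 lower of 16 tested, where 7% and 7.4% of all genes were, with a median of 0.08 against 0.00 over all genes. FBN1, which forms microfibrils on a fibronectin scaffold, rose (1.29, adjusted p = 0.000230), as did the syndecan SDC4 (0.97, adjusted p = 0.00123) and the integrin subunit ITGA3 (0.76, adjusted p = 0.00102). ITGAV fell (-0.57, adjusted p = 0.0266) and so did ITGA4 (-0.91, adjusted p = 0.0231) and ITGB3, from 128 to 47.4 CPM (-1.43, adjusted p = 0.00677), the last named after its values were seen. None of these 3 passed without the first or the second shRNA-Luc library (adjusted p between 0.0538 and 0.236), nor ITGAV and ITGA4 without the first of shRNA-CHD9#2 (0.0686 and 0.0554) or ITGAV without either of shRNA-CHD9#1 (0.0565 and 0.0518). ITGB1 was 0.02 (adjusted p = 0.932), and ITGA5 is not analysed here.

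Of the 12 BAR-domain and endocytic partners of BIN1 in the tables, 10 were tested in K562. There 3 were higher and 2 lower, where 17.6% and 13.6% of all genes were, and the median was -0.05 against 0.01 over all genes. BIN3, another BAR-domain protein, rose (0.64, adjusted p = 0.00682), as did the dynamin DNM3 (0.61, adjusted p = 0.0246) and MYC (0.46, adjusted p = 0.0169), the last named after its value was seen. The dynamin DNM1 fell (-0.91, adjusted p = 0.00962) and so did the endophilin SH3GL3 (-0.74, adjusted p = 0.00139). In SNB19 1 of 12 rose and 2 fell, where 7% and 7.4% of all genes did, with a median of 0.05 against 0.00 over all genes. The amphiphysin AMPH, the closest relative of BIN1, rose (0.65, adjusted p = 0.00844), and the dynamins DNM1 (-1.20, adjusted p = 0.000494) and DNM3 (-1.01, adjusted p = 0.000564) fell. In K562 BIN3, DNM3 and MYC did not pass without the second shRNA-Luc library (adjusted p between 0.0823 and 0.176), and DNM1 without the first or the second (0.0961 and 0.0645). In SNB19 AMPH did not pass without the first or the second (0.0815 and 0.164).

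The mouse orthologs were read next, to ask whether loss of Chd9 in another species moved the same genes. Chd9 reads were counted over all of its exons, deleted and remaining alike. Chd9 in Chd9-/- samples was 26.5% of wild type in MEFs, 22.7% in ESCs, 34.7% in liver, 16.3% in brain and 16.4% in lymphomas, with no overlap of the genotypes in any. It passed the test in MEFs (adjusted p = 0.000178), brain (adjusted p = 4.17e-05) and Chd9-/- lymphomas (adjusted p = 0.0330), and missed it in ESCs (0.0632), liver (0.0779) and Chd9+/- lymphomas (0.926, at 53.4% of wild type). The lymphoma result did not pass once any Chd9-/- sample, any wild type or the third Chd9+/- sample was left out (adjusted p between 0.0833 and 0.217), and the ESC result passed without the third wild type (0.0109).

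The 4 orthologs in 6 genotype comparisons make 24 values, of which 22 had enough counts. By edgeR none of the 22 passed and 3 had an unadjusted p under 0.05, 1 each in ESCs, liver and brain. Over all genes, 158 of 15218 in MEFs, 1849 of 15510 in ESCs and 436 of 15515 in liver had such a p. In brain 588 of 17192 had it, and in lymphomas 520 (Chd9-/-) and 602 (Chd9+/-) of 13440. DESeq2 passed 1 of the 22, Fn1 in ESCs, where it passed 4.64% of all genes. The log2 fold changes ran from -0.81 to 1.04, and 13 of 22 were below 0. By edgeR the share of all genes that passed in either direction was also small. It was 0.0131% in MEFs, 0.155% in ESCs, 0.0322% in liver and 0.0523% in brain. In lymphomas it was 0.00744% for Chd9-/- and 0% for Chd9+/-. In mm9 Aplnr lies on the plus strand of chromosome 2 (84976517 to 84980079), Fn1 on the minus strand of chromosome 1 (71632094 to 71699774) and Igf1 on the plus strand of chromosome 10 (87321010 to 87399792). Bin1 lies on the plus strand of chromosome 18 (32536871 to 32595390), and 292 exon bases of Fn1 overlap Apol7d on the other strand.

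**Figure D3:**
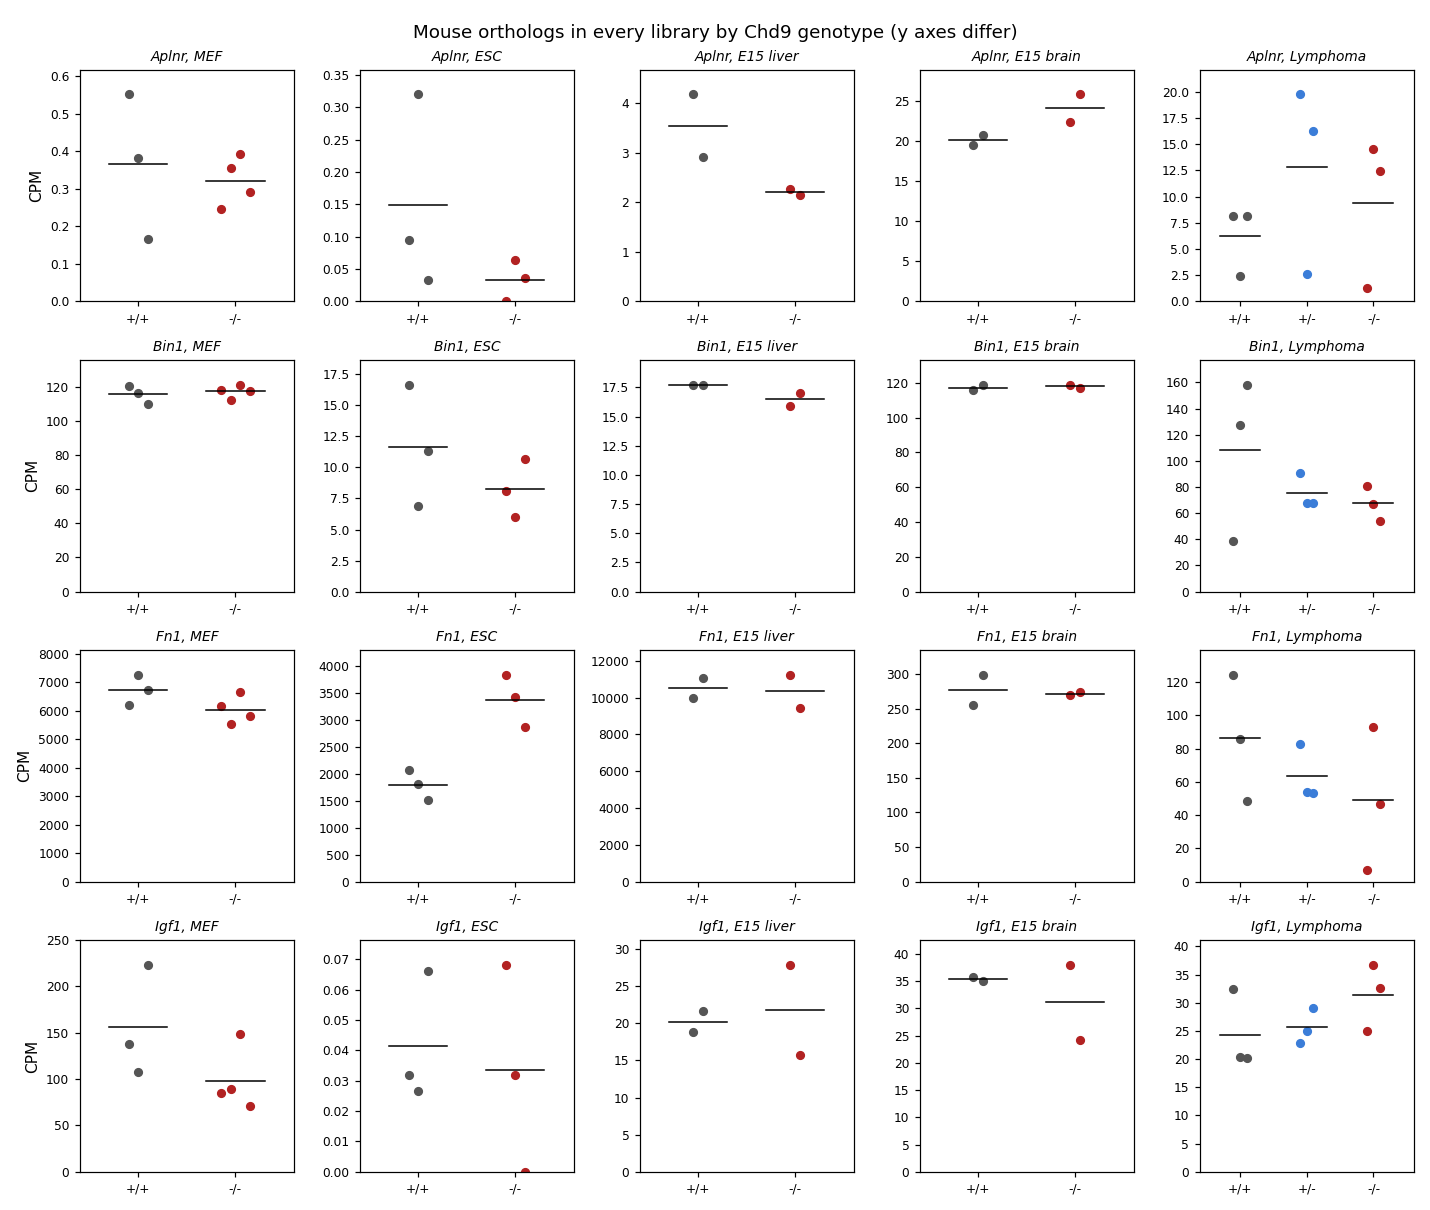
CPM of Aplnr, Bin1, Fn1 and Igf1 in every mouse library, by experiment (columns) and Chd9 genotype. Each point is 1 library, lines are group means, and linear y axes start at 0 and differ between panels. Fn1 in ESCs is higher in all 3 Chd9-/- libraries (2869 to 3842 CPM) than in all wild types (1524 to 2066 CPM), and most other panels overlap.

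Fn1 levels differed widely between the kinds of mouse sample. Wild-type means were 10512 CPM in E15 liver, 6719 in MEFs, 1801 in ESCs, 277 in E15 brain and 86.2 in lymphomas. Within the E15 table, brain was below liver by -5.89 on the log2 scale (SE 0.245, adjusted p = 1.20e-07), a comparison in which 83.7% of genes passed.

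In ESCs Fn1 was 3842, 3423 and 2869 CPM in Chd9-/- and 2066, 1812 and 1524 CPM in wild type. The genotypes did not overlap, and Fn1 was higher without Chd9, at 188% of wild type (3378 ± 488 against 1801 ± 271 CPM, n = 3 each). The log2 fold change was 0.91 (SE 0.171, unadjusted p = 0.000890 and adjusted p = 0.0872 by edgeR), which misses the threshold after adjustment. The same fold change passed with DESeq2 (adjusted p = 0.000142) and in edgeR without a filter on low counts (adjusted p = 0.0372).

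Samples 1 and 3 of each ESC genotype share the starting number of their label, and within both pairs Chd9-/- was the higher sample. The main fit did not pair the samples. With the replicate number as a block the adjusted p was 0.0557 and 12 genes were called instead of 23. With the starting number as a batch term the value was 0.90 (adjusted p = 0.230) and 5 genes were called. Y-linked genes summed to 204 to 278 CPM in the Chd9-/- ESCs and to 0.066 to 0.293 CPM in wild type, so sex and genotype cannot be told apart in this comparison. The pluripotency markers overlapped, at 3276 to 3583 CPM in Chd9-/- and 3164 to 3726 CPM in wild type. The 9 mesenchymal markers did not, at 7.57 to 10.3 CPM in Chd9-/- and 13.2 to 19.0 CPM in wild type, and their part in the Fn1 levels was not tested.

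In MEFs Fn1 was 6153, 5544, 6644 and 5805 CPM in Chd9-/- and 6186, 7257 and 6714 CPM in wild type (log2 fold change -0.15, SE 0.093, adjusted p = 1.00). In liver it was 11247 and 9429 CPM in Chd9-/- against 9960 and 11065 CPM (-0.02, SE 0.239), and in brain 270 and 273 CPM against 255 and 299 CPM (-0.03, SE 0.074). In these 3 kinds of sample the 2 genotypes overlapped, with fold changes between -0.15 and -0.02.

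Igf1 was most abundant in MEFs. It was 85.1, 88.9, 148 and 71.3 CPM in Chd9-/- and 138, 107 and 223 CPM in wild type (log2 fold change -0.67, SE 0.320, edgeR adjusted p = 1.00). The ranges overlapped through the third Chd9-/- sample, and the mean was 63.0% of wild type. Of the Chd9-/- samples, 1 carries the same letter in its label as the 3 wild types, and with that letter as a term the value was -1.13 (adjusted p = 1.00). What the letter stands for is not given in the sources used here.

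In E15 tissues Igf1 was 27.9 and 15.7 CPM in Chd9-/- liver against 18.8 and 21.6 CPM in wild type (0.11, SE 0.276). In brain it was 38.0 and 24.2 CPM against 35.8 and 35.0 CPM (-0.19, SE 0.181). In both tissues 1 Chd9-/- sample lay above and 1 below the wild types. Without the first Chd9-/- brain the value was -0.55 (adjusted p = 0.0230), and without the second it was 0.10. Wild-type brain and liver differed by 0.16 (SE 0.279, adjusted p = 0.605). ESCs had between 0 and 2 Igf1 reads per library.

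Aplnr was low in MEFs, at 0.247, 0.356, 0.393 and 0.292 CPM in Chd9-/- against 0.551, 0.381 and 0.165 CPM, or between 5 and 17 reads. The genotypes overlapped (log2 fold change -0.18, SE 0.412). In ESCs it had between 0 and 12 reads per library and was not tested.

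In liver Aplnr was 2.27 and 2.14 CPM in Chd9-/- against 4.17 and 2.92 CPM in wild type, with no overlap (-0.69, SE 0.233, unadjusted p = 0.0294, edgeR adjusted p = 1.00). In brain the direction was opposite, with 22.4 and 25.8 CPM against 19.6 and 20.7 CPM (0.26, SE 0.084, unadjusted p = 0.0175, adjusted p = 0.999). The difference between the tissues was 0.95 (SE 0.237, unadjusted p = 0.00424, adjusted p = 1.00), which does not pass, and 0% of all genes passed that comparison by edgeR. In wild type Aplnr was higher in brain than in liver by 1.86 (SE 0.165, adjusted p = 1.26e-05). The 9 mesenchymal markers summed to 742 and 747 CPM in Chd9-/- liver and 861 and 899 CPM in wild type, and the endothelial markers to 259 and 282 against 282 and 285 CPM, which was not tested. The Chd9-/- E15 samples had 0.0697 to 0.162 CPM of Y-linked reads and the wild types 188 to 209 CPM, so here too sex and genotype cannot be told apart.

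Bin1 varied little between samples in MEFs and E15 tissues. In MEFs it was 118, 112, 121 and 117 CPM in Chd9-/- and 120, 116 and 110 CPM in wild type (0.02, SE 0.053), and in brain 119 and 117 CPM against 116 and 119 CPM (0.01, SE 0.043). In liver it was 15.9 and 17.0 CPM against 17.7 CPM in both wild types (-0.11, SE 0.097, edgeR adjusted p = 1.00). The liver genotypes did not overlap, and the Chd9-/- mean was 92.9% of wild type. In ESCs Bin1 was 8.11, 6.03 and 10.7 CPM against 16.7, 6.88 and 11.3 CPM (-0.49, SE 0.389, adjusted p = 0.680), with overlapping ranges. Wild-type brain exceeded liver by 2.08 (SE 0.067, adjusted p = 3.01e-08).

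**Figure D4:**
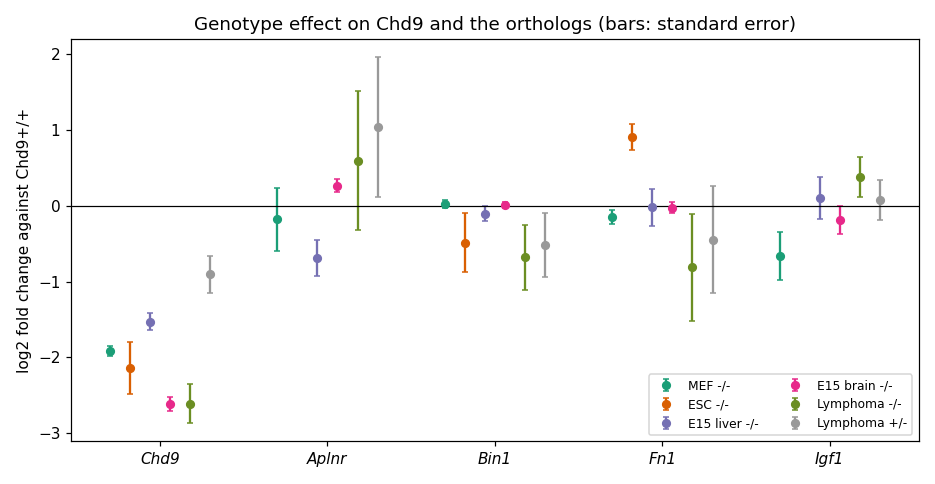
Log2 fold change of Chd9 and the 4 orthologs against wild type in each mouse comparison. Points are fitted changes and bars are standard errors. Chd9 lies between -2.62 and -0.91, while the orthologs lie between -0.81 and 1.04, with the smallest errors for Bin1 in MEFs and brain and the largest for Aplnr in lymphomas.

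The lymphomas varied widely between samples of 1 genotype for Fn1 and Aplnr. Fn1 was 124, 85.5 and 48.7 CPM in wild type, 82.9, 53.8 and 53.2 CPM in Chd9+/- and 7.07, 93.2 and 46.9 CPM in Chd9-/-. The first Chd9-/- tumour lay far below the other 8, while the second exceeded 2 of 3 wild types. The log2 fold change was -0.81 (SE 0.707) for Chd9-/- and -0.45 (SE 0.704) for Chd9+/-, with adjusted p between 0.945 and 1.00. Without the first Chd9-/- tumour the Chd9-/- value was -0.30, and without the second it was -1.69.

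That tumour also had the lowest sum of 9 mesenchymal markers, 162 CPM, against 392 to 917 CPM in the other 8, and the lowest sum of T cell markers, 6.72 CPM against 19.7 to 126 CPM. Aplnr was lowest there too. It was 8.16, 2.46 and 8.20 CPM in wild type, 19.7, 2.59 and 16.2 CPM in Chd9+/- and 1.29, 14.6 and 12.4 CPM in Chd9-/- (0.59, SE 0.916, and 1.04, SE 0.921, adjusted p = 1.00 and 0.926). All genotypes overlapped, and the part of the marker genes in these levels was not tested.

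**Figure D5:**
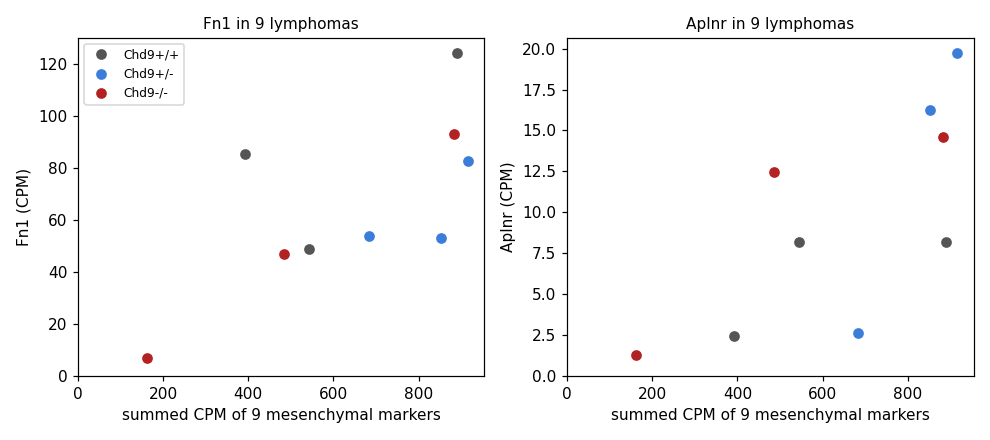
CPM of Fn1 (left) and Aplnr (right) in 9 EμMyc lymphomas against the summed CPM of 9 mesenchymal markers, coloured by Chd9 genotype. Each point is 1 tumour and both axes are linear and start at 0. The Chd9-/- tumour at 162 CPM of markers holds the lowest value of both genes, 7.07 and 1.29 CPM.

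Bin1 in lymphomas was 39.0, 127 and 158 CPM in wild type, 90.4, 68.0 and 68.1 CPM in Chd9+/- and 81.1, 67.1 and 54.0 CPM in Chd9-/-. The wild types spanned all other tumours, and the log2 fold changes were -0.68 (SE 0.428) and -0.52 (SE 0.427). Igf1 was 32.4, 20.3 and 20.1 CPM in wild type, 22.9, 24.9 and 29.1 CPM in Chd9+/- and 24.9, 36.7 and 32.7 CPM in Chd9-/-. The ranges overlapped, with log2 fold changes of 0.37 (SE 0.265) and 0.08 (SE 0.265) for Chd9-/- and Chd9+/-.

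The partner lists gave few changes in mouse. Over the 6 genotype comparisons 458 tests of listed genes gave none that passed by edgeR, 29 with an unadjusted p under 0.05, and 6 that passed by DESeq2. These were Stc2 (-1.69), Itgb3 (-1.70), Itgb1 (-0.71), Igfbp5 (-1.95) and Fbln2 (-1.61) in ESCs and Col3a1 (-0.30) in brain, named here after their values were seen. All 6 were lower in Chd9-/-. The counts over all genes at an unadjusted p under 0.05 are given above with the orthologs. DESeq2 passed 4.64% of all genes in ESCs, 0.174% in brain, 0.0132% in MEFs, 0.0902% in liver, 0.195% in Chd9-/- lymphomas and 0.113% in Chd9+/- lymphomas. Sex and genotype cannot be told apart in the ESC and E15 comparisons. In lymphomas Y-linked genes summed to 0.0764 to 0.127 CPM in Chd9-/-, 0 to 272 CPM in wild type and 0.0844 to 229 CPM in Chd9+/-. Sex was thus not balanced between the lymphoma genotypes, and its part was not tested.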

How the data were processed

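RNA was extracted with Trizol, prepared with the TruSeq protocol and sequenced on a HiSeq2000. Per the submitters' processing notes and the study's methods, the authors mapped reads with TopHat2 2.1, counted them per Ensembl gene with HTSeq 0.5.3 and deposited a count table for each experiment. Builds were hg37 for human cells, mm9 for MEFs and ESCs, and mm10 for the other mouse samples. The deposited values are raw counts, and 0 columns belonged to other samples. Groups follow the sample titles, and every library was used. Labels of the Chd9-/- livers and the wild-type brains carry identical embryo numbers, and the titles were followed. Y-linked genes summed to 0.0697 to 0.111 CPM in these livers and to 208 to 209 CPM in these brains.

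Counts were analysed in R 4.3.3 with edgeR 4.0.16 (TMM scaling, filterByExpr, quasi-likelihood F-test, Benjamini-Hochberg adjustment over all tested genes). The edgeR and DESeq2 fits were first run on simulated counts, without a filter and for the first comparison of each line, tissue or cell type. The remaining steps were not run on simulated data. A gene passed at an adjusted p under 0.05 and was called when its log2 fold change also exceeded 1 in size. Both hairpins formed 1 group, and single hairpins came from a fit with 3 groups. E15 tissues were fitted separately, except for comparisons between them, and lymphomas in 1 fit. Fold changes carry a prior count of 0.125. CPM use TMM-scaled library sizes, and likeness used log2 CPM with a prior count of 2.

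The genes named are the 4 members, CHD9, fixed ligands and receptors, the 3 genes of each list with the smallest p-values per human line, listed mouse genes that passed, listed human genes that passed (added after their values were seen), and the 3 genes most like each member, of which 1 is not reported here. Members and lists were chosen with earlier results of these data known. ESC samples with the same number deviated together (r 0.231 to 0.468, labels 1 and 3 sharing a starting number). The main ESC fit did not pair them, and pairing by number was fitted only as an alternative. Alternatives were DESeq2 1.42.0, its size factors, filters, replicate blocks, batch terms and leaving out each library.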

Additional observations from a re-analysis of the deposited data

Results flagged for a closer look

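BIN1 lay on opposite sides of its controls in the human lines, with all 4 knockdown libraries below both controls in K562 (log2 fold change -3.59) and above both in SNB19 (0.37). The same held for the list genes ARRB1 (0.58 in K562 and -0.35 in SNB19), COL1A2 (-1.55 and 0.15), ITGB3 (2.41 and -1.43), LAMC1 (-0.30 and 0.28), IGF2R (0.68 and -0.12), DNM3 (0.61 and -1.01) and FBN1 (-0.93 and 1.29). Other named genes lay on the same side of their controls in both lines, namely FN1, CHD9, DNM1, ITGAV and STC2 below and GNAI2 and ITGA3 above. The share of all genes on opposite sides was not computed, so nothing is read from the number found. The difference between the lines was not tested for any of the 8 genes on opposite sides. The SNB19 values of BIN1, ARRB1, COL1A2, IGF2R and LAMC1 and the K562 value of FBN1 did not pass on their own.

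For single genes, 13 groups of 4 or more libraries were examined for a library apart from the rest, and 2 held one. These groups share libraries across genes, and in the human lines each pools 2 hairpins, so no chance rate applies. The K562 values of the 4 genes are given as a description only, since they entered the choice of genes. APLNR in the second K562 library of shRNA-CHD9#2 was 20.4 CPM against 16.8 to 16.9 CPM in the other 3 knockdown libraries, a gap of 0.971 of the group's range. Chd9 in the third Chd9-/- MEF sample was 36.9 CPM against 31.8 to 32.5 CPM, a gap of 0.854 of the range. Both values remained well below their controls.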

How the results depend on the processing

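The members' fold changes in K562 kept their direction in every alternative and every omission of 1 library. In SNB19 the pooled FN1 and BIN1 changes kept their direction too, and other settings that crossed the threshold gave 0.41 (no filter on low counts) and 0.36 (3 groups) for BIN1, and -0.38 for BIN1 between hairpins without a filter. In ESCs Fn1 was 0.91 with DESeq2 and 0.91 without a filter, both past the threshold. The E15 difference between tissues for Fn1, -0.00, had the other sign with DESeq2 (0.00311), its size factors (0.00311) and no filter (0.00176). The causes were not tested. Among listed genes, HDAC4 (adjusted p = 0.0503) and PAPPA2 (0.0630) in K562 and IGFBP5 in SNB19 (0.0577) no longer passed with DESeq2. Without the filter HDAC4 and LAMC1 (0.0956) in K562 no longer passed. With 3 groups ITGB1 (0.0142) and IGF1R (0.00181) passed in K562 and GNAI2 in both lines (0.00467 and 0.0143), the latter also without a filter in SNB19 (0.0226). IGF1R in SNB19 changed sign without a filter (0.0325). Chd9 in ESCs and liver passed with DESeq2 and without a filter.

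Counts of genes called moved with the fold threshold, the tool and the libraries used. On the adjusted p alone they were 2866 (K562), 5275 and 3712 (K562 by hairpin), 1261 (SNB19), 2543 and 1511 (SNB19 by hairpin) and 629 (between hairpins). DESeq2 gave 414 in ESCs, 11 in liver, 16 in brain, 24 in Chd9-/- and 14 in Chd9+/- lymphomas, and 6 for the tissue difference. Without a filter there were 123 in ESCs, 9 in liver and 2 in Chd9-/- lymphomas. In ESCs size factors gave 14, a mean of at least 10 counts 8 and the starting number as a term 5. The label letter gave 1 in MEFs, and fitting only the 2 genotypes gave 2 in Chd9-/- lymphomas.

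With the replicate number as a block, 12 genes were called in ESCs, 3 in liver, 0 in MEFs and 0 in Chd9-/- lymphomas. The block moved no tested member across the threshold. With it HDAC4 (adjusted p = 0.0866), SDC1 (0.0712) and LAMC1 (0.0595) in K562 and IGFBP5 in SNB19 (0.0626) no longer passed. Nor did Chd9 in MEFs (0.500) and Chd9-/- lymphomas (0.0857). Outside ESCs same-numbered samples share only a number, with correlations of deviations from -0.02 to 0.03 in K562 and in SNB19, -0.47 to 0.33 in MEFs, -0.43 in liver, -0.02 in brain and -0.23 to 0.37 in lymphomas. Crossed pairing in liver, chosen after seeing the data, gave 44 calls.

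Leaving out 1 library at a time, the calls ranged from 660 to 1291 in K562, 124 to 470 in SNB19, 246 to 716 for its second hairpin, 76 to 271 between hairpins, 3 to 147 in ESCs, 11 to 41 in brain, 1 to 1 in MEFs, 0 to 2 in Chd9-/- and 0 to 1 in Chd9+/- lymphomas. In K562 shRNA-CHD9#1 gave -3.61 to -3.35 for BIN1, -3.91 to -3.45 for FN1 and -2.46 to -2.18 for IGF1, and shRNA-CHD9#2 gave -2.37 to -2.10 for APLNR, -3.82 to -3.56 for BIN1, -3.46 to -3.00 for FN1 and -2.11 to -1.83 for IGF1. In SNB19 FN1 ranged from -0.45 to -0.39 pooled, -0.54 to -0.41 and -0.40 to -0.35 by hairpin and -0.15 to -0.0385 between hairpins. BIN1 ranged from 0.0825 to 0.26 and 0.35 to 0.72 by hairpin and -0.54 to -0.18 between hairpins, and CHD9 between hairpins from -0.43 to 0.23.

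In SNB19 IGF1R ranged from -0.0332 to 0.0250 and ITGB1 from -0.0895 to 0.0652. Small mouse values changed sign. Bin1 ranged from -0.00390 to 0.0252 in brain and -0.0163 to 0.0509 in MEFs, Fn1 from -0.14 to 0.0909 in brain and -0.16 to 0.10 in liver, Igf1 from -0.55 to 0.10 in brain, -0.36 to 0.46 in liver and -0.0568 to 0.34 in Chd9+/- lymphomas, and Aplnr from -0.53 to 0.23 in MEFs. The tissue difference ranged from -0.13 to 0.14 for Fn1 and -0.65 to 0.18 for Igf1. Across omissions 284 member values kept sign and side of the threshold or moved by less than the spread, 17 changed sign, 14 in K562 moved by more, 6 came to pass and 7 no longer passed. Where 2 libraries made a group, the one that remained was assumed to vary like the other groups. Depth limits APLNR and IGF1 in SNB19 and Aplnr and Igf1 in ESCs.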
